A study of Mus musculus with 154 samples.

Results

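The double chromosome substitution strain (CSS) (B6.A5 X B6.A3)F1 combined a heterozygous A/J chromosome 5 with a heterozygous A/J chromosome 3, and its liver transcriptome was compared with B6 and with the sum of the effects of its chromosomes in the 2 single CSSs. The strain was chosen by its sample label, which gives the sire first, and 5 mice carry it beside 149 mice of other strains in the series. The label of 1 of these 5 mice lacks the ending F1 and was read as the same cross. The single CSSs were (B6 X B6.A3)F1 with 8 mice, which were heterozygous for A/J chromosome 3, and (B6.A5 X B6)F1 with 7 mice, which were heterozygous for A/J chromosome 5. The control strain B6 (C57BL/6J) had 20 mice. In these crosses chromosome 3 came from the dam and chromosome 5 from the sire, in the double strain as in the single ones, and the rest of the genome was C57BL/6J. All mice were males of 5 weeks that had been fasted overnight, and RNA was taken from the liver. The study's methods state that the mice of each cross came from at least 3 breeding cages, but not which mice shared a cage, so the p-values measure the spread between mice.

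A CSS carries 1 chromosome from another inbred strain on an otherwise uniform background. A gene on the replaced chromosome can differ because of variants in or near it, which is called a cis effect here, and a difference of a gene elsewhere is called a trans effect. When 2 replaced chromosomes act independently, their log2 effects add up in the double strain, and a departure from this sum is called an interaction. The liver of a fasted mouse makes glucose from amino acids and glycerol, burns fatty acids to ketone bodies and keeps its sterol synthesis low, and many of the genes described below belong to these programs.

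The double CSS had between 7836081 and 20412004 counted reads per mouse (median 13260738), against medians of 19450729 in (B6 X B6.A3)F1, 18246660 in (B6.A5 X B6)F1 and 18806894 in B6. Summed over 9 measured hepatocyte markers, the level was 98720 to 134600 CPM (counts scaled to an equal library size) in the double CSS and 110100 to 171200 CPM in B6. Transcripts of skeletal muscle were highest in mouse 2 of the double CSS and were also found in the single CSSs. Ttn (titin) was at 46.5 CPM in mouse 1, 280 CPM in mouse 2 and 0.824 to 1.11 CPM in mice 3 to 5. It was at most 25.0 CPM in (B6 X B6.A3)F1, 32.6 CPM in (B6.A5 X B6)F1 and 9.14 CPM in B6. Myh4 (a fast muscle myosin), the 1 gene measured of 8 muscle markers, was at 4.73 CPM in mouse 1, 87.7 CPM in mouse 2, 0.475 CPM in mouse 3 and 0 in mice 4 and 5, against at most 5.48, 4.91 and 1.45 CPM in these 3 strains. Mouse 1 was thus above every mouse of these 3 strains for Ttn, but below the highest mouse of each single CSS for Myh4. The main counts are also given without mice 1 and 2, and the part of the muscle transcripts in the other results was not tested. In bulk RNA a smaller number of cells of a type and less RNA per cell cannot be told apart.

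The first comparison asked which genes differed between the double CSS and B6. The model was fitted to all mice of the series and included 5 surrogate variables, which estimate variation among libraries that no label gives. An FDR (false discovery rate) is a p-value adjusted over the genes on, or those off, the replaced chromosomes. Of 13289 genes tested, 1798 (13.5%) had an FDR under 0.05 in edgeR's quasi-likelihood test, with 881 (6.63%) higher and 917 (6.90%) lower in the double CSS. The calls covered 151 of 737 genes on chromosome 3 (20.5%), 204 of 971 on chromosome 5 (21%) and 1443 of 11581 elsewhere (12.5%). Among the called genes the median absolute log2 fold change was 0.37 on chromosomes 3 and 5 and 0.331 elsewhere. In the single CSSs the same test called 492 genes (3.70%) for chromosome 3, 88 of them on chromosome 3, and 102 genes (0.768%) for chromosome 5, 75 of them on chromosome 5. Without surrogate variables the count for chromosome 3 was 0.918% of the genes, with 68 on chromosome 3 and 50 off both chromosomes, that for chromosome 5 was 64 genes, and that in the double CSS was 1656 genes. All 3 comparisons share the same B6 mice. Without mice 1 and 2, 654 genes were called in the double CSS, 71 on chromosome 3, 97 on chromosome 5 and 486 elsewhere, and 602 of them were among the 1798. Without mouse 2 alone the count was 986, and with 10 surrogate variables in place of 5 it was 985. The values of all 5 double CSS mice lay outside the range of all 20 B6 mice for 73 genes (0.549%), of which 54 were higher in the double CSS, with 9 on chromosome 3, 14 on chromosome 5 and 50 elsewhere. For mice 3 to 5 alone it was 1.87% of the genes, since fewer mice span a narrower range.

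The largest change of a named gene on a replaced chromosome was that of Gbp11, which was higher with A/J chromosome 5. Gbp11 (ENSMUSG00000092021, a guanylate binding protein of the interferon-inducible GTPase family, chromosome 5 of mm10 from 105323042 to 105346472, minus strand) was at 36.2, 29.1, 32.1, 27.6 and 25.4 CPM in mice 1 to 5 of the double CSS. It was at 14.2 to 26.2 CPM (median 19.6) in (B6.A5 X B6)F1, 2.92 to 6.40 CPM (median 4.69) in (B6 X B6.A3)F1 and 1.28 to 4.0 CPM (median 2.48) in B6. The double CSS and B6 did not overlap, and 4 of the 5 double CSS mice were above every mouse of the strain with chromosome 5 alone. Relative to B6 the log2 fold change was 3.57 (standard error 0.16, edgeR adjusted p = 5.33e-43) in the double CSS, 2.98 (standard error 0.15) for chromosome 5 and 0.76 (standard error 0.16, edgeR adjusted p = 0.00327) for chromosome 3. These single effects sum to 3.74, and the interaction was -0.18 (95% confidence interval -0.67 to 0.32). The genes of this family are alike in sequence, so that reads may be split among them.

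Abhd1 (ENSMUSG00000006638, an alpha/beta hydrolase, chromosome 5 from 30950066 to 30955091, plus strand) was at 18.5, 16.1, 24.3, 20.9 and 20.2 CPM in the double CSS mice. Its range was 20.7 to 30.4 CPM in (B6.A5 X B6)F1, 2.28 to 4.68 CPM in (B6 X B6.A3)F1 and 1.97 to 5.04 CPM in B6. Every mouse with an A/J chromosome 5 was thus above every mouse without it, and the log2 fold change was 2.73 (standard error 0.13) in the double CSS and 2.86 (standard error 0.11) with chromosome 5 alone. Slc15a4 (ENSMUSG00000029416, a histidine and peptide transporter of lysosomes, chromosome 5 from 127595664 to 127632897, minus strand) was at 60.9, 61.8, 71.8, 53.7 and 51.9 CPM in the double CSS, 52.2 to 67.2 CPM in (B6.A5 X B6)F1 and 18.3 to 36.4 CPM in B6. It also separated all mice with an A/J chromosome 5 from those without, although mouse 6 of (B6 X B6.A3)F1 was at 43.9 CPM when the other 7 mice of that strain were at 21.7 to 27.0 CPM. Slc15a4 had a log2 fold change of 1.18 in the double CSS and 1.18 with chromosome 5 alone. Gbp4, a neighbour of Gbp11, was at 6.78 to 8.79 CPM in the double CSS and at most 5.63 CPM in B6, with a log2 fold change of 1.09 (edgeR adjusted p = 1.55e-08).

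The other 4 genes with large changes on chromosome 5 were lower. Zbed5 (a gene derived from a transposon) was at 2.17, 4.0, 3.64, 3.14 and 3.06 CPM in the double CSS against 3.93 to 16 CPM in B6, and its log2 level fell by 1.31 (standard error 0.17) in the double CSS and by 1.11 with chromosome 5 alone. Por, which donates electrons to all microsomal cytochrome P450 enzymes, was at 195, 148, 230, 143 and 171 CPM in the double CSS and 241.6 to 624.7 CPM in B6. No double CSS mouse reached the lowest B6 mouse for Por. Its single effects were -0.59 (edgeR adjusted p = 0.00343) for chromosome 3 and -0.22 (edgeR adjusted p = 0.354) for chromosome 5. The double CSS was at -1.11 (standard error 0.16, edgeR adjusted p = 2.3e-08). The interaction of Por, like that of every gene, did not pass an FDR under 0.05. For Ppargc1a (PGC-1alpha, a coactivator of glucose production and mitochondrial genes) the double CSS was at 18.2, 15.9, 14.4, 15 and 11.3 CPM and B6 at 14.1 to 74.4 CPM (median 41.2). Mouse 5 was below every B6 mouse, and the other 4 were at or above the lowest of them. Ppargc1a had a log2 fold change of -1.40 (standard error 0.25) beside a sum of single effects of -1.42. It was called with chromosome 3 alone (-0.98, edgeR adjusted p = 0.00109), although it maps to chromosome 5. Nipal1, a magnesium transporter, was at 8.65 to 24.7 CPM in the double CSS and 16.2 to 94.6 CPM in B6, and its log2 fold change of -1.11 was no longer called with 10 surrogate variables (edgeR adjusted p = 0.0707) or without mouse 4 (edgeR adjusted p = 0.0614).

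On chromosome 3, Tnfsf10 (ENSMUSG00000039304, the death ligand TRAIL, from 27317028 to 27342427, plus strand) was at 22.5, 26.8, 27.8, 29.7 and 19.8 CPM in the double CSS. The range was 16.5 to 24.6 CPM in (B6 X B6.A3)F1, 6.53 to 9.65 CPM in (B6.A5 X B6)F1 and 3.43 to 10.9 CPM in B6. Mice with and without an A/J chromosome 3 did not overlap. The log2 fold change was 1.83 (standard error 0.11, edgeR adjusted p = 3.77e-31) in the double CSS and 1.56 (standard error 0.09) with chromosome 3 alone, and the interaction was 0.04 (95% confidence interval -0.29 to 0.38). Asic5 (ENSMUSG00000028008, an acid-sensing ion channel, from 81982290 to 82021233, plus strand) behaved likewise, with 50.4, 56.2, 49.9, 41.1 and 61.1 CPM in the double CSS, 37.8 to 63.0 CPM in (B6 X B6.A3)F1 and 6.90 to 27.1 CPM in B6. Commd2 was at 16, 23.7, 15.1, 14.8 and 15.8 CPM in the double CSS and 8.06 to 11.7 CPM in B6, with a log2 fold change of 0.87 (standard error 0.08) in the double CSS and 0.78 with chromosome 3 alone.

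Car3, Hsd3b5 and Selenbp2 also lie on chromosome 3, and their levels in B6 varied widely from mouse to mouse. Car3 (ENSMUSG00000027559, carbonic anhydrase 3, an abundant enzyme of male liver, from 14863512 to 14872523, plus strand) was at 1163, 778, 793, 1357 and 1698 CPM in the double CSS. It was at 236.6 to 957 CPM in (B6 X B6.A3)F1, 260 to 486 CPM in (B6.A5 X B6)F1 and 86.4 to 560 CPM in B6 (median 177). The 5 double CSS mice were above all B6 mice, and 3 of them were above every mouse of both single CSSs. Its log2 fold change was 1.88 (standard error 0.23) in the double CSS, 1.34 for chromosome 3 and 0.68 (edgeR adjusted p = 0.149) for chromosome 5, which does not carry it. Hsd3b5, a male-specific steroid dehydrogenase of liver, was at 119, 36.7, 50.4, 82.9 and 85.2 CPM in the double CSS and 1.09 to 58.7 CPM in B6, so that the groups overlapped. Hsd3b5 had a log2 fold change of 1.91 with the 5 surrogate variables and 2.42 without them. Selenbp2, a selenium binding protein, had a log2 fold change of 1.15 (edgeR adjusted p = 0.0304), which was lost without mouse 1 (edgeR adjusted p = 0.144), without mouse 2 (edgeR adjusted p = 0.0783) and with 10 surrogate variables (edgeR adjusted p = 0.597). The predicted gene Gm43314 had a log2 fold change of 0.91 (edgeR adjusted p = 0.0147), which was lost without surrogate variables (edgeR adjusted p = 0.276) and under 5 other settings. Ddah1, which degrades methylated arginine, was the 1 gene of these 8 on chromosome 3 that was lower, at 28.4 to 48.3 CPM in the double CSS and 29.1 to 99.9 CPM in B6, with a log2 fold change of -0.81 (standard error 0.13).

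**Figure D1:**
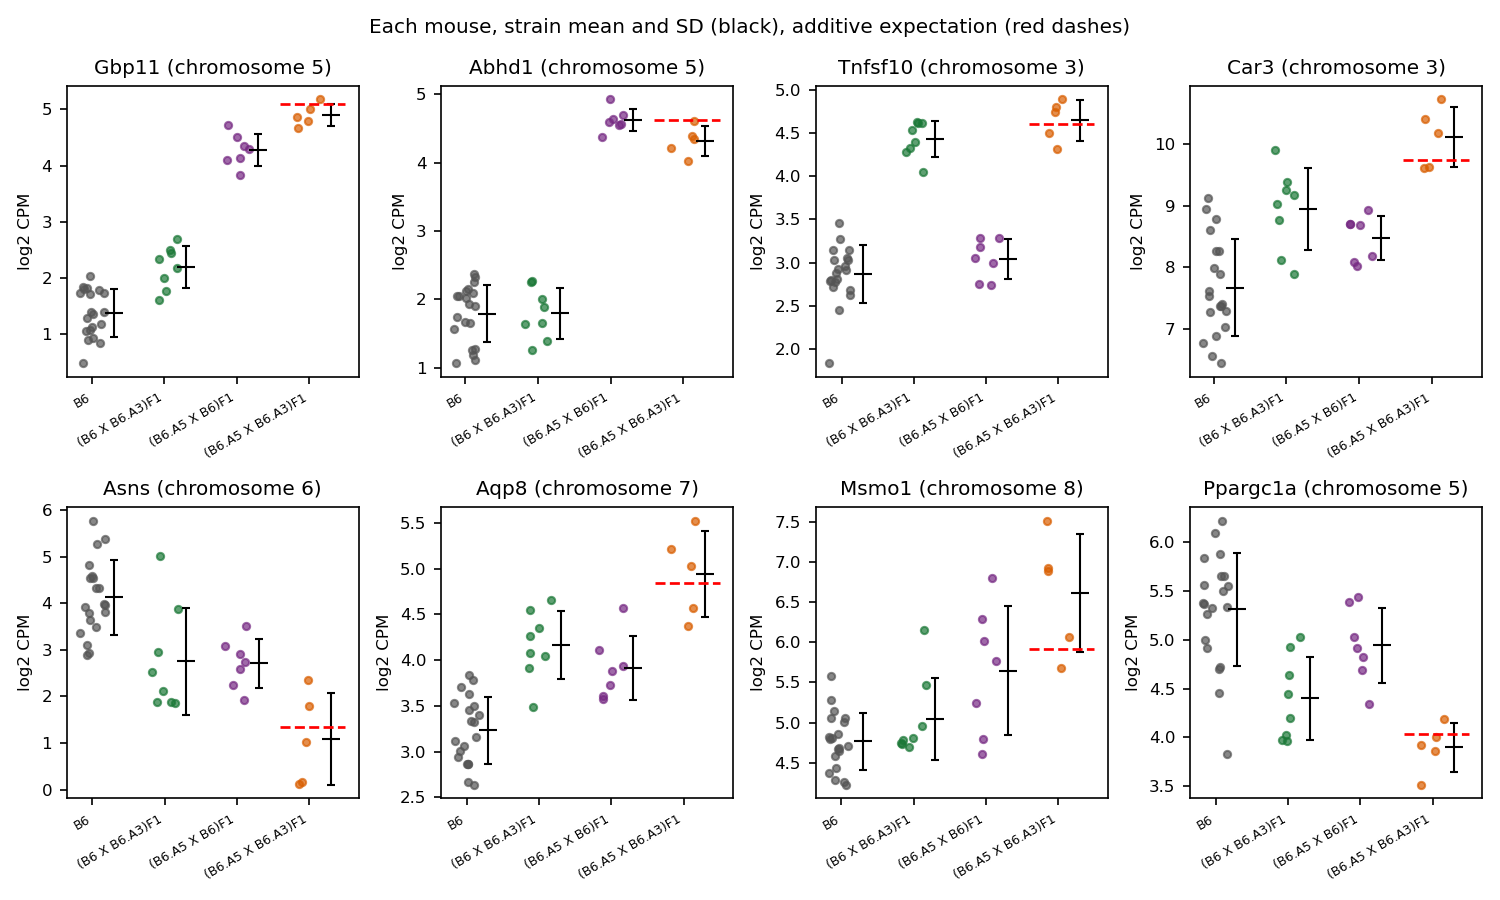
Each panel plots the log2 CPM of every mouse for 1 gene in B6 (20 mice), (B6 X B6.A3)F1 (8), (B6.A5 X B6)F1 (7) and (B6.A5 X B6.A3)F1 (5), with the strain mean and SD in black and the sum expected from the strain means as a red dashed line. The double CSS follows the strain with chromosome 5 for Abhd1 and that with chromosome 3 for Tnfsf10, and lies beyond the mean of both single strains for Car3, Asns, Aqp8 and Msmo1.

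Genes called in each of the single CSSs let the sum be seen most directly. There were 19 such genes, 12 of them off both chromosomes, and 18 of the 19 changed in the same direction in both single strains (10 higher, 8 lower), and both comparisons use the same B6 mice. Asns (ENSMUSG00000029752, asparagine synthetase, a target of the amino acid response, chromosome 6 from 7675169 to 7693254, minus strand) is the gene for which the study examined additivity in this cross. It was at 4.99, 1.91, 3.33, 0.961 and 1.0 CPM in the double CSS, 3.52 to 32.5 CPM (median 4.92) in (B6 X B6.A3)F1, 3.68 to 11.3 CPM (median 6.58) in (B6.A5 X B6)F1 and 7.36 to 54.8 CPM (median 15.7) in B6. Every double CSS mouse was below every B6 mouse, and 4 of the 5 were below every mouse of the single CSSs. Relative to B6 the log2 fold change was -1.35 (standard error 0.30, edgeR adjusted p = 0.00483) for chromosome 3, -1.47 (standard error 0.33, edgeR adjusted p = 0.0236) for chromosome 5 and -2.87 (standard error 0.48, edgeR adjusted p = 8.75e-06) in the double CSS. The sum of the single effects is -2.82 and the interaction was -0.05, but its 95% confidence interval from -1.23 to 1.14 leaves room for a departure of more than 2-fold in either direction.

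Aqp8 (ENSMUSG00000030762, a water channel of the bile canaliculus and mitochondria, chromosome 7 from 123462291 to 123468004, plus strand) went the other way, with 32.5, 20.6, 23.7, 45.9 and 36.9 CPM in the double CSS and 6.10 to 14.2 CPM in B6. Its ranges in the single CSSs, 11.1 to 25.0 CPM with chromosome 3 and 11.8 to 23.6 CPM with chromosome 5, lay between those of B6 and the double CSS and overlapped both. The single effects of 0.93 and 0.68 sum to 1.61, and the double CSS was at 1.60 (standard error 0.18), with an interaction of -0.01 (95% confidence interval -0.54 to 0.51). Sdr9c7, a short-chain dehydrogenase, had single effects of 0.56 and 0.61, a sum of 1.17 and a double CSS effect of 1.14 (standard error 0.17). Nrg4, a growth factor that acts on ErbB receptors, was at 3.65 to 10.4 CPM in the double CSS and 7.27 to 36.8 CPM in B6. Its double CSS effect of -1.52 (standard error 0.27) was smaller than the sum of -2.07, with an interaction of 0.55 (95% confidence interval -0.15 to 1.25). Vcam1, a cell adhesion molecule encoded on chromosome 3, was at 17.1 to 28.7 CPM in the double CSS and at 29.9 CPM or more in B6, with a double CSS effect of -0.81 beside a sum of -1.03. Of the 18 genes that changed in the same direction in both single CSSs, all but Asns had a double CSS effect smaller in size than the sum. These genes were chosen by their single effects, which enter the sum, so their departures from it are a description. Among the 19, the interaction had an unadjusted p under 0.05 for 4 (21.1%, against 4.49% of all genes), and the lowest was that of the imprinted noncoding RNA H19, which is under the level filter for named genes. H19 was at 0.177 to 6.37 CPM in the double CSS and 0 to 31.6 CPM in B6. H19 had a log2 fold change of -1.15 in the double CSS beside a sum of single effects of -4.29, with an interaction of 3.14 (standard error 0.96).

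Among genes with a mean log2 CPM of 2 or more, the largest changes elsewhere in the genome, apart from Ttn and Asns, were those of 5 genes that were lower and of Msmo1. Myh4 and Sqle, below that level, changed more than Msmo1. Lpin1, a phosphatidate phosphatase and coactivator, was at 124.9, 46.9, 75.8, 26.6 and 29.3 CPM in the double CSS and 64.6 to 547 CPM in B6, and its log2 fold change was -2.12 (standard error 0.42). Lepr, the leptin receptor, was at 7.52 to 11 CPM in the double CSS and 10.1 to 212 CPM in B6 (log2 fold change -2.08, standard error 0.47). Igfbp1, a binding protein that liver secretes when insulin is low, was at 34.3 to 89.3 CPM in the double CSS and 56.0 to 693.8 CPM in B6 (log2 fold change -1.74, standard error 0.44). Of the 5 double CSS mice, 3 for Lpin1, 4 for Lepr and 2 for Igfbp1 were below every B6 mouse, and the others lay within the B6 range. Cidec, a lipid droplet protein, and Bcl6, a transcriptional repressor, had log2 fold changes of -2.33 and -2.02. With mice 1 and 2 left out, the edgeR adjusted p was 0.0883 for Cidec, 0.0689 for Bcl6 and 0.0709 for Igfbp1, and with 10 surrogate variables the log2 fold change of Cidec was -1.0 (edgeR adjusted p = 0.325). The sums of the single effects of Lpin1 and Lepr were -2.33 and -2.28, within the standard error of their change in the double CSS.

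Genes of cholesterol synthesis were higher in the double CSS. Of 21 measured genes of the pathway and its regulators, 17 rose, 0 fell and 4 did not pass the test (Hsd17b7 and Dhcr7 among them), against 6.63% of all genes that rose, with a median log2 fold change of 0.84 beside -0.00459 over all genes. In (B6.A5 X B6)F1, 5 of the 21 rose (Mvk, Fdps, Sqle, Cyp51 and Msmo1) with a median of 0.339. There 15 of the 21 had an unadjusted p under 0.05 in edgeR, against 12.4% of all genes. In (B6 X B6.A3)F1 0 passed the test in edgeR (5 at an unadjusted p under 0.05, against 17.7% of all genes, and 1 lower in DESeq2), with a median of 0.151. Between 13 and 18 genes of the list were called in the double CSS under every other setting, and 17 without mice 1 and 2. Cholesterol is built from acetyl-CoA by way of mevalonate, squalene and lanosterol, and the transcription factor SREBP2 induces nearly every enzyme of this route when sterols are low, together with the factor NF-Y, which binds the sequence CCAAT. To show that sequence, the 250 bases before the start of 3 called genes are printed from RefSeq (GRCm38.p6, the C57BL/6J reference, not the A/J sequence), 5′ to 3′ on the strand of the gene. Hmgcs1 makes HMG-CoA, Mvd acts on mevalonate diphosphate and Sc5d desaturates the sterol ring, and these windows hold 0 bases of a GENCODE exon. Capitals mark CCAAT on either strand (ATTGG on the other) and, in Hmgcs1, the sterol element TCACNCCAC, here TCACCCCAC.
Hmgcs1, chr13:119690101-119690350, plus strand: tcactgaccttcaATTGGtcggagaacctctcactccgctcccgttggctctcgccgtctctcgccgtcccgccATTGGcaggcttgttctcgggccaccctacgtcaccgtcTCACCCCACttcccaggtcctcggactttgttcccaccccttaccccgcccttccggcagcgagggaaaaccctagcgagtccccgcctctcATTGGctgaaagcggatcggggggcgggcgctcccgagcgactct
Mvd, chr8:122443423-122443672, minus strand: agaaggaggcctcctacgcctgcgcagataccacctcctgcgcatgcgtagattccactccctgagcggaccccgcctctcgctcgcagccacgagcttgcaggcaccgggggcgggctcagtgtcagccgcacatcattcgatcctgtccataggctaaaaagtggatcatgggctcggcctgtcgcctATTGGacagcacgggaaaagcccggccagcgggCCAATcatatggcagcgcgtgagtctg
Sc5d, chr9:42264301-42264550, minus strand: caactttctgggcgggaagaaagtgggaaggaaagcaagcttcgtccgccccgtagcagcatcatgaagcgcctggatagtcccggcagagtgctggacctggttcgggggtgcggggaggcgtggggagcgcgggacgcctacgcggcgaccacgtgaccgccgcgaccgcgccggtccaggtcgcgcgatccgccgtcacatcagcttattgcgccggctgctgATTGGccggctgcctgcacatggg
CCAAT was found on either strand in 14 of 17 windows (82.4%) of the 14 list genes that have an entry, against 33.8% of all 32851 windows. Each of the 14 genes had at least 1 window with a match, against 37.5% of 27025 genes with an entry and 40.6% of the 9773 tested genes with an entry. Hsd17b7 and Dhcr7, which did not pass the test in the double CSS, held 3 and 2 matches. There were 3 matches in Hmgcs1, 2 in Mvd and 1 in Sc5d, whose log2 fold changes were 0.98, 1.37 and 0.28. Mvk, 1 of 3 list genes on chromosome 5 beside Cyp51 and Insig1, held 5. TCACNCCAC was found in 1 of the 14 (7.14%) and in 1.22% of all genes with an entry. Motif and windows were chosen with the expression results known, and a match describes these letters only.

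Msmo1 (ENSMUSG00000031604, the sterol C4-methyl oxidase, chromosome 8 from 64718139 to 64733792, minus strand) was at 182, 67.1, 51.0, 121 and 118 CPM in the double CSS. It was at 24.2 to 111 CPM (median 54.2) in (B6.A5 X B6)F1, 25.7 to 71.0 CPM (median 27.7) in (B6 X B6.A3)F1 and 18.6 to 47.8 CPM (median 26.8) in B6. The double CSS and B6 did not overlap, and mice 1, 4 and 5 were higher than mice 2 and 3. Msmo1 had a log2 fold change of 1.83 (standard error 0.22, edgeR adjusted p = 2.44e-10), beside 0.37 for chromosome 3 and 1.0 (edgeR adjusted p = 0.00545) for chromosome 5. Sqle, the squalene epoxidase, showed the same split among the 5 mice, with 28.4, 5.64, 3.40, 24.4 and 20.5 CPM against 0.939 to 10.3 CPM in B6, and a log2 fold change of 2.17 (standard error 0.32). Hmgcs1 was at 268.4, 94.4, 113, 265 and 220 CPM against 63.5 to 128 CPM in B6, and Idi1, an isomerase of isoprene units, at 116.6, 48.3, 29.2, 83.5 and 71.5 CPM against 14 to 51.6 CPM.

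Summed over the 21 genes, the level was 1852, 907.2, 1007, 1757 and 1668 CPM in mice 1 to 5, against 701.4 to 1220 CPM in B6, 814.1 to 1219 CPM in (B6 X B6.A3)F1 and 863.2 to 1273 CPM in (B6.A5 X B6)F1. Mice 1, 4 and 5 were above every mouse of the other 3 strains, and mice 2 and 3 were within the B6 range. The muscle transcripts were high in mice 1 and 2. Among the regulators in the list, Insig1 retains SREBP in the endoplasmic reticulum and lies on chromosome 5. Insig1 was at 201, 92.8, 105, 206 and 226 CPM in the double CSS and 41.0 to 156 CPM in B6 (log2 fold change 1.0, standard error 0.18). Its interaction, 0.54, had an unadjusted p of 0.0492 in edgeR and did not pass the adjustment. The interaction was positive for 18 of the 21 genes, with a median of 0.268 beside -0.00436 over all genes, and these genes vary together in the same 5 mice. The median was 0.142 without mouse 1, 0.171 without mouse 4 and 0.414 without mouse 3.

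Of 23 measured genes of glucose production, 11 fell, 0 rose and 12 did not pass the test in the double CSS, against 6.90% of all genes that fell, with a median log2 fold change of -0.304. In (B6 X B6.A3)F1 6 fell, with a median of -0.173. In (B6.A5 X B6)F1 0 fell in edgeR and in DESeq2, with 7 at an unadjusted p under 0.05 and a median of -0.121. Leaving out mice 1 and 2, 4 of the 23 were called, with a median of -0.241, and with 10 surrogate variables 6 were called, with a median of -0.195. Ppargc1a, described above, changed most. Tat, which starts tyrosine breakdown and is induced by glucocorticoids and glucagon, was at 1740, 934, 1329, 834 and 1196 CPM in the double CSS and 1331 to 3765 CPM (median 2750) in B6. Mice 2, 3, 4 and 5 were below every B6 mouse for Tat, and its log2 fold change was -1.02 (standard error 0.23). Got1, the cytosolic aspartate aminotransferase, was at 250 to 370 CPM in the double CSS and 280 to 1021 CPM in B6 (log2 fold change -0.83, standard error 0.21), and Foxo1, a transcription factor that insulin inactivates and that lies on chromosome 3, fell by 0.58 on the log2 scale.

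Pck1, the enzyme that commits oxaloacetate to glucose synthesis, was at 3743, 2027, 3739, 2089 and 2847 CPM in the double CSS and 1242 to 5177 CPM in B6. Its values lay inside the B6 range, and its log2 fold change of -0.47 (edgeR adjusted p = 0.03) was not called without surrogate variables (edgeR adjusted p = 0.0804), with 10 of them (0.121) or without mouse 2 (0.155), 4 (0.181) or 5 (0.0654). G6pc, which releases free glucose, had a log2 fold change of -0.15 (standard error 0.23, edgeR adjusted p = 0.744). Pygl, the liver glycogen phosphorylase, had 0.23 (edgeR adjusted p = 0.0929). Other called members included Fbp1, Mdh2, Eno1, Gpi1 and Ldha, with log2 fold changes between -0.25 and -0.48. For all 23 members the 95% confidence interval of the interaction lay within a 2-fold change in either direction, and the lowest unadjusted p was 0.0274.

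**Figure D2:**
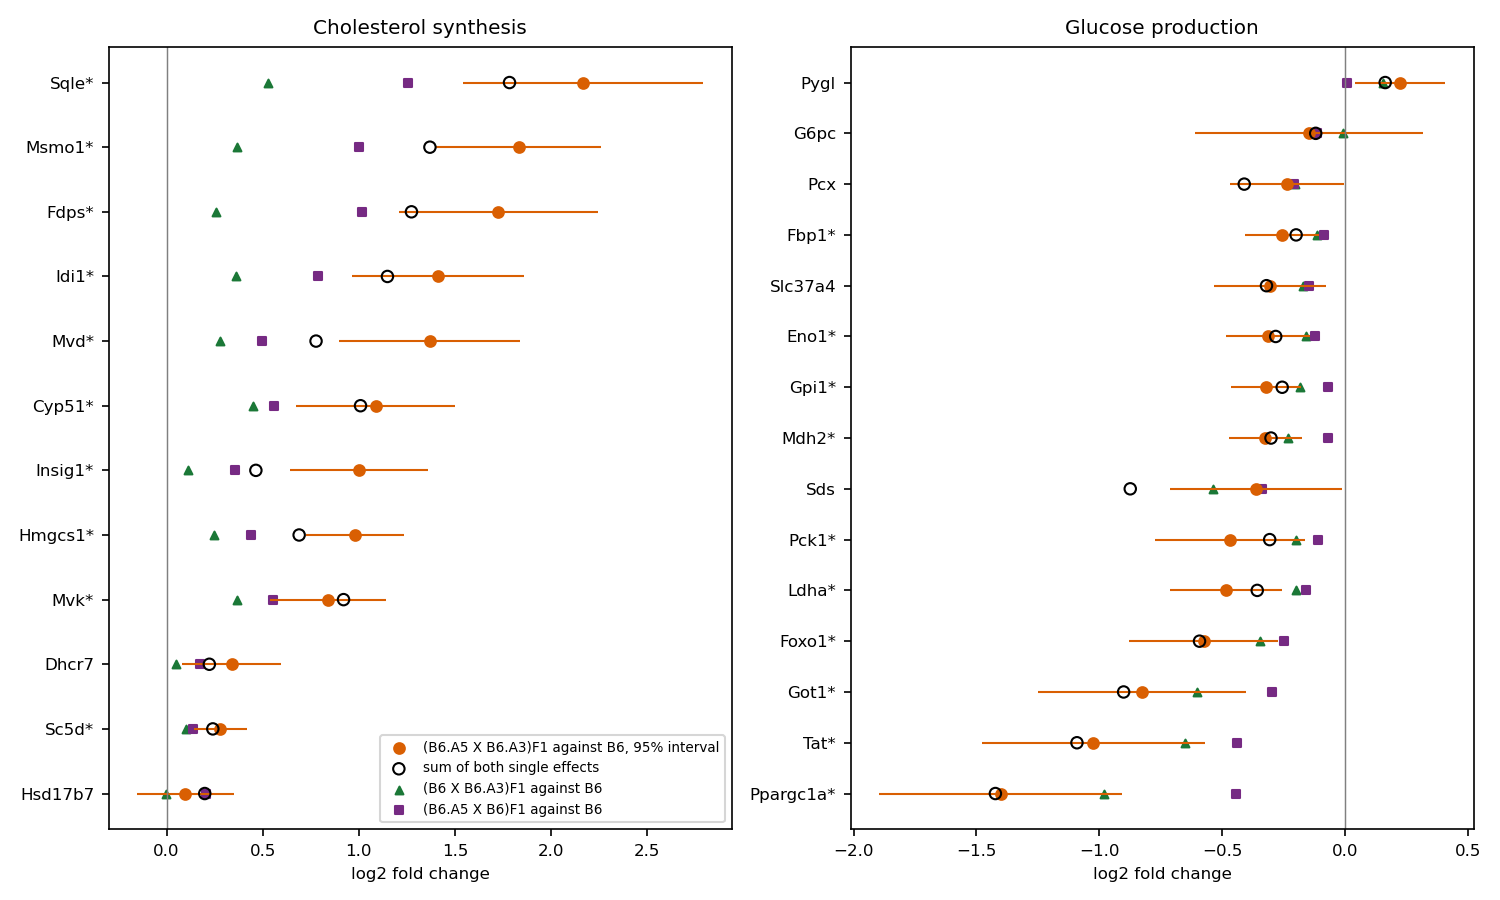
Log2 fold changes from B6 are plotted for 12 of the 21 genes of cholesterol synthesis (left) and 15 of the 23 of glucose production (right), those named in the text, for the double CSS with its 95% confidence interval (orange), each single CSS (triangles, chromosome 3; squares, chromosome 5) and their sum (open circles), with an asterisk for an FDR under 0.05 in the double CSS. The sum lies close to the double CSS for Ppargc1a and Tat, and below it for 10 of the 12 plotted genes of cholesterol synthesis, Sqle and Msmo1 among them.

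Of 22 measured genes of fatty acid oxidation and ketogenesis, 13 fell, 0 rose and 9 did not pass the test in the double CSS (median -0.316), against 6.90% of all genes that fell, whereas 1 fell with chromosome 3 (Acadl, a long-chain acyl-CoA dehydrogenase; median of the list -0.108) and 0 with chromosome 5 in edgeR and in DESeq2 (1 at an unadjusted p under 0.05, median -0.0717). Without mice 1 and 2 only 3 of the 22 were called, with a median of -0.206, and with 10 surrogate variables 5 were called. Acot1 (ENSMUSG00000072949, a cytosolic acyl-CoA thioesterase induced by PPARalpha, chromosome 12 from 84009490 to 84018371, plus strand) was at 11.4, 13.4, 20, 14.2 and 15.1 CPM in the double CSS and 24.8 to 74.8 CPM in B6. All 5 mice were below every B6 mouse, and the log2 fold change was -1.46 (standard error 0.26). Ehhadh, an enzyme of peroxisomal oxidation, was at 456, 435, 971, 438 and 635 CPM against 688.4 to 2746 CPM in B6 (log2 fold change -1.37), and mouse 3 was the highest of the 5. Cyp4a14, which hydroxylates fatty acids, was at 1440, 1986, 4269, 1087 and 1224 CPM against 2901 to 7073 CPM (log2 fold change -1.28), with mouse 3 again the 1 inside the B6 range. Cpt1a, which admits fatty acids to mitochondria, fell by 0.52 on the log2 scale. The receptor gene Ppara had -0.12 (edgeR adjusted p = 0.517). The interaction was negative for 21 of the 22 genes, with an unadjusted p under 0.05 for 1 of them (Acot1, -0.83, p = 0.017 in edgeR). Its median over the list was -0.158, beside -0.00436 over all 13289 genes, of which 6472 had a positive interaction. The 22 genes were measured in the same 5 double CSS mice, so their signs are not independent.

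The main test asked whether the double CSS departed from the sum of both single effects. None of the 13289 genes (0%) had an FDR under 0.05 for the interaction in edgeR's quasi-likelihood test, and the lowest FDR was 0.99. At an unadjusted p under 0.05 there were 4.49% of the genes. The count at an FDR under 0.05 was also 0 in DESeq2 (4.52% at an unadjusted p under 0.05), without surrogate variables, with 10 of them, without each double CSS mouse in turn and under every other setting, where the lowest FDR was 0.322 (without mouse 4). By chromosome, 29 of 737 genes on chromosome 3 (3.93%), 42 of 971 on chromosome 5 (4.33%) and 4.54% of the 11581 genes elsewhere had an unadjusted p under 0.05. The interaction was positive for 6472 genes.

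**Figure D3:**
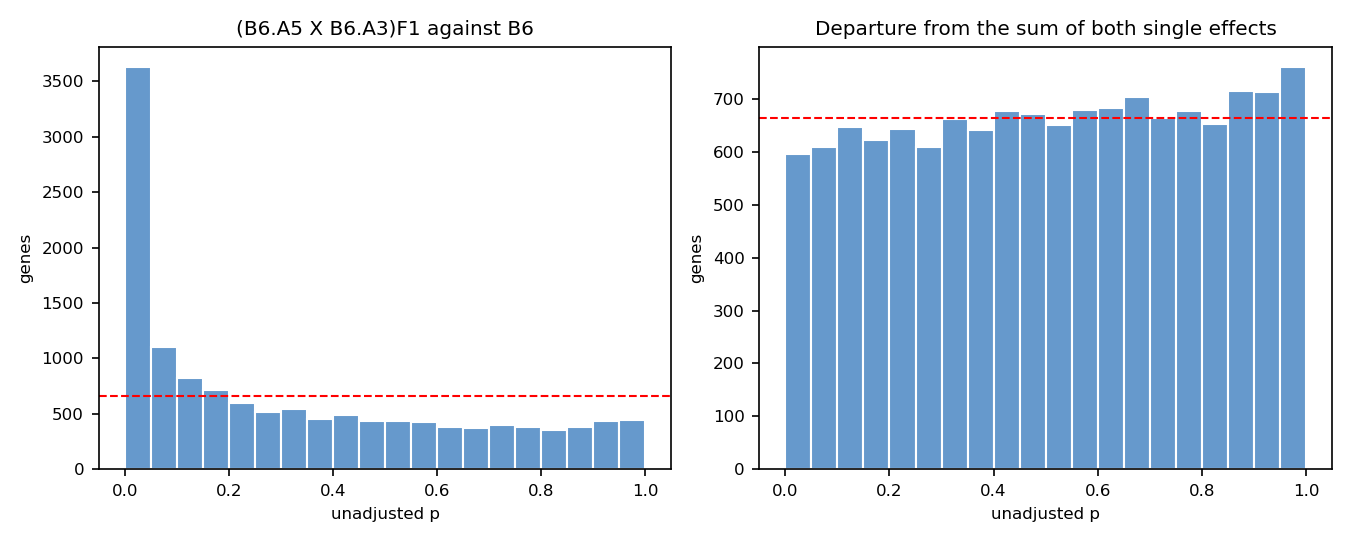
The histograms show the number of genes, out of 13289, per 0.05 of unadjusted p for the double CSS against B6 (left) and for the departure from the sum of both single effects (right), with the number per bin of a flat distribution as a red dashed line. The lowest bin holds 3630 genes on the left and 4.49% of the genes on the right, below the dashed line.

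How small a departure could be seen depends on the gene. The median standard error of the interaction was 0.146 on the log2 scale over all genes and 0.121 over the 9716 genes whose mean log2 CPM was 2 or more. Its 95% confidence interval lay within a 2-fold change in either direction for 12080 genes (90.9%), and within a 1.5-fold change for 9277 (69.8%). Among the 1798 genes called in the double CSS these were 1663 (92.5%) and 1369 (76.1%), with a median absolute interaction of 0.0983. Variable genes such as Asns, Hsd3b5 (interval -1.41 to 0.99) and Lepr (-0.99 to 1.40) are outside these limits. The smallest unadjusted p among these 9716 genes was that of Gas2l1, a protein that links actin and microtubules. Gas2l1 was at 9.46, 7.73, 7.29, 8.30 and 9.77 CPM in the double CSS, 8.24 to 12.6 CPM in (B6 X B6.A3)F1, 9.76 to 13.2 CPM in (B6.A5 X B6)F1 and 8.50 to 13.1 CPM in B6, so that all groups overlapped. Its interaction was -0.45 (standard error 0.12, unadjusted edgeR p = 0.00021, adjusted p = 0.99).

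Oxct1, which lets tissues other than liver use ketone bodies, followed with an interaction of 0.72 (standard error 0.20) and 9.21, 8.55, 7.29, 4.30 and 7.59 CPM in the double CSS against 1.97 to 7.52 CPM in B6. Further genes with a small p were Tdrp (-0.55), Ccdc157 (-0.58) and Atg16l2 (-0.71).

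The design also measures each substitution in separate sets of mice, since (B6.A5 X B6)F1 against B6 and the double CSS against (B6 X B6.A3)F1 both give the effect of chromosome 5 and have no mouse in common. They were fitted in 1 model and so share the surrogate variables and the estimate of spread. Of the 75 genes on chromosome 5 that were called on the B6 background, 70 had the same sign on the chromosome 3 background, and 57 of these also had an unadjusted p under 0.05 there, against 898 of all 13289 genes (6.76%). The median absolute log2 fold change of the 75 genes was 0.462 on B6, and the median in the same direction was 0.466 on the chromosome 3 background. Across these 75 genes Pearson's r was 0.954, which is a description over genes that share their libraries. On the chromosome 3 background itself 53 genes (0.399%) passed an FDR under 0.05, 40 of them on chromosome 5, and without mice 1 and 2 33 genes passed, all of them on chromosome 5. Of the 27 genes called off chromosome 5, 25 had the same sign and 12 of these an unadjusted p under 0.05, with a median of 0.606 on B6 and 0.205 on the chromosome 3 background. Without mice 1 and 2, 49 of the 75 genes and 9 of the 27 had the same sign and an unadjusted p under 0.05.

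For chromosome 3 the counterpart is the double CSS against (B6.A5 X B6)F1. Of 88 genes called on chromosome 3, 86 had the same sign on the chromosome 5 background, and 49 of these had an unadjusted p under 0.05, against 1399 of all genes (10.5%). Their median was 0.373 on B6 and 0.281 on the chromosome 5 background, with Pearson's r of 0.934 across the 88 genes. Of 404 genes called off chromosome 3, 364 had the same sign and 147 of these an unadjusted p under 0.05, with medians of 0.318 and 0.18. These counts of 49 and 147 were 40 and 113 without mice 1 and 2. All these genes were chosen by their values on B6, so the medians on B6 are a description. On the chromosome 5 background 86 genes (0.647%) passed an FDR under 0.05, 36 of them on chromosome 3. That number was 16 without mice 1 and 2, all of them on chromosome 3, and 21 with only the 40 mice and no surrogate variables.

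**Figure D4:**
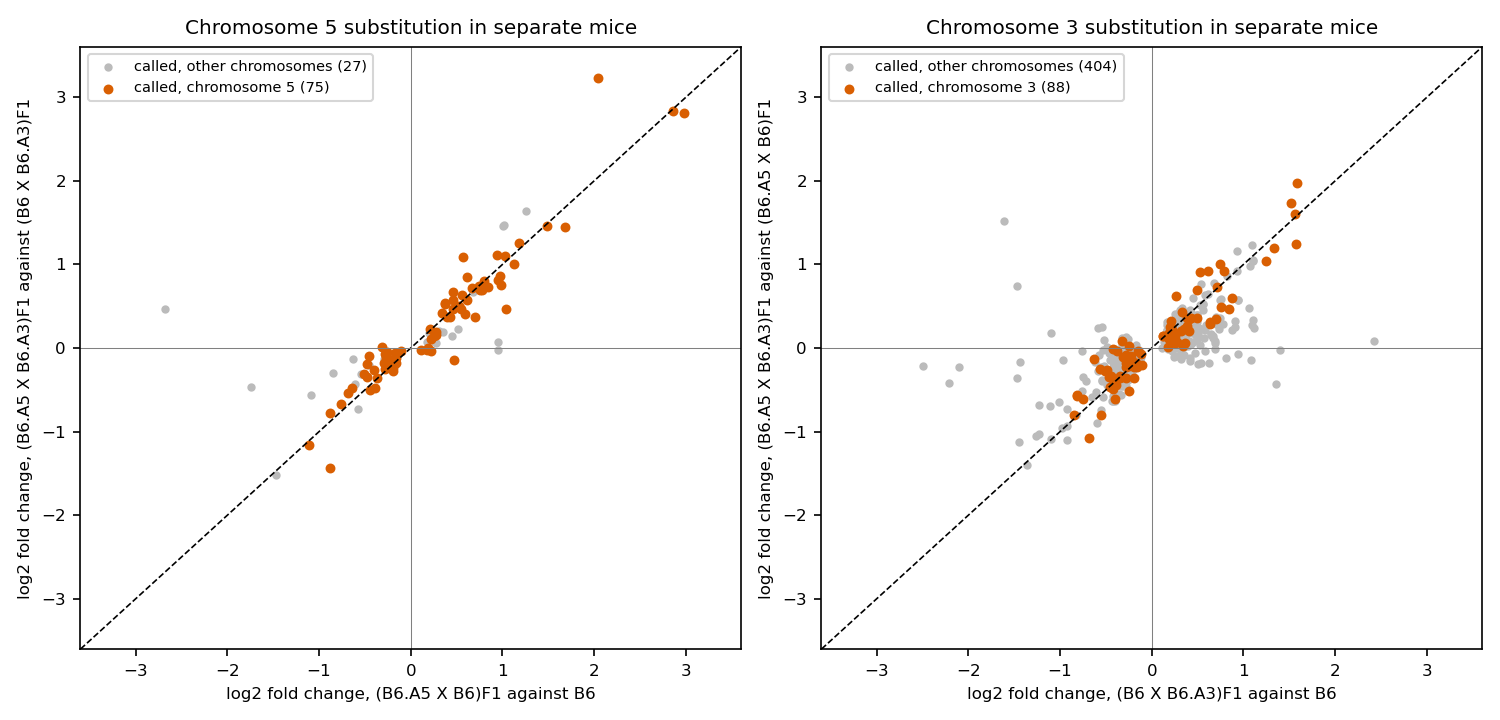
Each point is a gene called for chromosome 5 (left, 102 genes) or chromosome 3 (right, 492 genes) on the B6 background, with that log2 fold change on the horizontal axis and the log2 fold change of the same substitution in the double CSS against the other single CSS, from separate mice, on the vertical axis. The dashed diagonal marks equal effects. For the 75 and 88 genes on the replaced chromosome (orange), the median absolute horizontal value was 0.462 (left) and 0.373 (right). The median vertical value in the same direction was 0.466 and 0.281. Genes elsewhere (grey) are more scattered, with smaller vertical medians, 0.205 beside 0.606 (left) and 0.18 beside 0.318 (right). On the right 364 of these 404 genes had the same sign.

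Several gene families lie in clusters on the replaced chromosomes. Of all 1708 genes on chromosomes 3 and 5, 355 (20.8%) were called in the double CSS, 182 higher and 173 lower. Of 11 measured guanylate binding proteins on chromosomes 3 and 5, 5 rose in the double CSS (Gbp11, Gbp10, Gbp2b, Gbp4 and Gbp9), and these 5 were also called without mice 1 and 2. Gbp2b, on chromosome 3, was at 4.35, 4.46, 3.25, 4.05 and 2.88 CPM against 3.08 to 5.56 CPM with chromosome 3 alone, 1.02 to 2.19 CPM with chromosome 5 alone and 0.490 to 3.75 CPM in B6. Gbp3 and Gbp7, called with chromosome 3 alone at log2 fold changes of 0.40 and 0.38, were at 0.19 and 0.26 in the double CSS and not called there. Of 7 measured Cyp3a genes, which encode drug-oxidizing enzymes on chromosome 5, Cyp3a44 and Cyp3a25 rose and Cyp3a13 and Cyp3a59 fell, and without mice 1 and 2 1 rose and 1 fell. Cyp3a13 was at 155 to 223 CPM in the double CSS, 152.9 to 287 CPM with chromosome 5 alone and up to 784 CPM (median 341) in B6, where every mouse was above the 5 of the double CSS. Its log2 fold changes were -0.92 and -0.88. Of 8 measured Ugt2 genes, which encode glucuronidating enzymes on chromosome 5, 5 rose in the double CSS (median of the list 0.297), 2 with chromosome 3 alone and 0 with chromosome 5 alone in edgeR and in DESeq2, where 5 had an unadjusted p under 0.05 in edgeR. The count in the double CSS was 1 without mouse 2 and 0 without mice 1 and 2. Of 4 measured alcohol dehydrogenases on chromosome 3, Adh4 rose (log2 fold change 0.65, and 0.50 with chromosome 3 alone), and of 7 glutathione transferases of the mu class Gstm5 and Gstm6 rose, by 0.42 and 0.39. No fibrinogen gene (3 measured), albumin family gene (4) or Oas gene (7) passed the test in edgeR or DESeq2 in the double CSS, with 2, 0 and 3 at an unadjusted p under 0.05 in edgeR.

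Genes that respond to growth hormone and differ between the sexes moved in part. Of 17 measured genes 5 rose (Mup3, Elovl3, Hsd3b5, Slco1a1 and Cyp3a44) and 3 fell (Cyp17a1, Acot3 and Cux2) in the double CSS. Of all genes 6.63% rose and 6.90% fell. Cyp3a44 lies on chromosome 5 and had a log2 fold change of 2.04 with chromosome 5 alone. Slco1a1, an organic anion transporter of male liver, was at 763, 821, 522, 616 and 743.7 CPM against 89.3 to 629 CPM in B6 (log2 fold change 0.81), and Mup3, a major urinary protein, at 6417 to 9702 CPM against 1041 to 6828 CPM (log2 fold change 0.67), with reads of this family possibly split among its members. The list's median log2 fold change was 0.183 with the 5 surrogate variables and 0.466 without them. The list was not split by the sex in which a gene is higher, so this median gives no direction toward either sex. Leaving out mice 1 and 2, 2 rose and 0 fell. All mice are males, and 4 Y-linked genes summed to at least 250.5 CPM in every mouse of the 4 strains.

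Of 18 measured genes of the ATF4 response to amino acid shortage, Asns, Atf5 and Psat1 fell and Psph rose, against 6.90% and 6.63% of all genes. Without mice 1 and 2, 2 fell and 1 rose. Psph makes serine and lies on chromosome 5. It was at 5.50, 4.73, 5.38, 5.06 and 4.30 CPM in the double CSS, 4.12 to 6.08 CPM with chromosome 5 alone and 1.82 to 4.0 CPM in B6, and its log2 fold change was 0.79 in the double CSS and 0.74 with chromosome 5 alone. Atf4 itself had 0.11 (edgeR adjusted p = 0.364), and the median of the list was -0.418.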

How the data were processed

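Total RNA of mouse liver was sequenced from one end with strand kept. TopHat2 placed the reads on mm10, and those left over were placed by the authors on an A/J genome. HTSeq counted them per gene, genes with few reads were removed, and the deposited values are raw counts for 13289 genes. Strains follow the sample labels, and gene positions GENCODE vM21. Which flow cell held which library is not given in the sources used here, so a batch cannot be told apart from the strains.

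TMM normalization and 1 model for all mice of the series, with 8 main effects, 15 interactions and 5 svaseq variables, were run in edgeR (version 4.0.16, with sva version 3.50.0 in R version 4.3.3). Other strains thus enter the estimate of spread and the surrogate variables. P-values come from the quasi-likelihood test of edgeR and were adjusted by the Benjamini-Hochberg method, apart for genes on and off the replaced chromosomes, with an FDR threshold of 0.05. CPM values use TMM library sizes, and log2 CPM a prior count of 2. The scripts were tested on simulated data. Alternatives included DESeq2 (version 1.42.0).

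Named genes had a mean log2 CPM of 2 or more. They were the 8 with the largest change against B6 on chromosome 3, on chromosome 5 and elsewhere, the 6 with the largest sum of single effects among genes called in both single strains, the 6 with the smallest interaction p, Asns, all members of the glucose production list, and called members of the other lists. List members under that level, H19, and uncalled list members were added after their values were seen. Some genes that these rules name are not reported here. The cross, the gene lists and the motifs were chosen with earlier results of these data known.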

Additional observations from a re-analysis of the deposited data

Results flagged for a closer look

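For 54 named genes the values of each strain with 4 to 10 mice were examined for a single mouse that lies far from the others. Such a mouse was found for 3 genes (5.56%) in (B6.A5 X B6.A3)F1, 2 (3.7%) in (B6 X B6.A3)F1 and 2 (3.7%) in (B6.A5 X B6)F1, and chance gives about 1 in 20.

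In the double CSS, mouse 2 was apart for 2 genes. Commd2 was at 23.7 CPM in that mouse and 14.8 to 16 CPM in the others, and Pcx (pyruvate carboxylase) at 258 CPM against 428 to 521 CPM. The same mouse had the most muscle transcripts. Slc37a4, the transporter that brings glucose 6-phosphate to the endoplasmic reticulum, was at 338.5 CPM in mouse 3 and 189 to 212 CPM in the others.

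In (B6 X B6.A3)F1, Slc15a4 was at 43.9 CPM in mouse 6 and 21.7 to 27.0 CPM in the others. Ttn was at 25.0 CPM in mouse 1 and 0.78 to 2.32 CPM in the others. In (B6.A5 X B6)F1, Sdr9c7 was at 37.9 CPM in mouse 6 against 19.3 to 21.9 CPM, and Sds, the serine dehydratase, at 106.5 CPM in mouse 4 against 180.7 to 262.3 CPM.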

How the results depend on the processing

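No paired analysis was possible because the labels give no replicate numbers that the strains share. The share of tested genes called for the interaction stayed at 0% under all alternatives. For the double CSS against B6 it was 13.5%, and 7.41% with 10 surrogate variables, 4.92% without mice 1 and 2 (chosen after seeing the data) and 7.42% (without mouse 2) to 12.7% with each double CSS mouse left out. For chromosome 3 on B6 the 3.7% became 0.918% without surrogate variables, 0.79% with the 40 mice and none of these variables (chosen after seeing the data) and 6.89% at an FDR under 0.1. For chromosome 5 on B6 the same settings gave 0.482%, 0.331% and 1.42% in place of 0.768%, and the 40 mice with surrogate variables 0.459%. For chromosome 3 on the chromosome 5 background, 0.647% became 0.406% without surrogate variables, 0.324% with 10, 0.369% with the 40 mice, 0.158% with the 40 mice and none, 0.12% without mice 1 and 2, 1.26% at an FDR under 0.1 and 0.293% (without mouse 1), 0.301% (mouse 5) and 0.339% (mouse 2 or mouse 4) to 0.88% (mouse 3) with a mouse left out. For chromosome 5 on the chromosome 3 background, 0.399% became 0.248% without mice 1 and 2 and 0.263% (without mouse 5) to 0.399% with a mouse left out. The cause was not tested. All other shares were within 1.5 times. Without mice 1 and 2 the log2 fold change of Ttn was -1.46 and that of Myh4 -0.42, and no other called gene among those named or listed changed direction against B6. In DESeq2 the fit of Myh4 did not converge and gave no value. Depth limits genes of a few CPM.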

Other observations

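In the double CSS, where 13.5% of all genes were called, 3 of 16 measured genes of glycolysis and glycogen rose (Gckr, Ugp2 and Ppp1r3c) and 5 fell (Pfkfb1, Pgk1, Gapdh, Gys2 and Aldoa). Without mice 1 and 2, 0 rose and 2 fell. Ppp1r3c, which targets a phosphatase to glycogen, was at 83.4, 104, 64.8, 147 and 177 CPM against 17.8 to 131.2 CPM in B6, and Gys2, the liver glycogen synthase, fell by 0.49 on the log2 scale. Of 15 genes of insulin and glucagon signalling, 1 rose (Ppp2r1b) and 3 fell (Igfbp1, Foxo3 and Inppl1). Of 17 circadian clock genes, Clock rose by 0.19 on the log2 scale and Per1 fell by 0.67. Of 16 acute phase genes 2 rose (Saa4 and Orm3), and of 6 urate handling genes 1 rose, Slc22a7.

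Among markers of other cells, 5 of 10 endothelial genes rose (Stab2, Clec4g, Kdr, Tek and Fcgr2b), with a median log2 fold change of 0.0792 over the list. The other 5 endothelial genes did not pass the test, and all of them had a negative log2 fold change. Of 10 Kupffer cell genes 1 fell (Marco), and of 10 stellate cell genes 2 rose (Des and Lrat). Over all genes 6.63% rose and 6.90% fell. Without mice 1 and 2, 0 of the endothelial genes rose and 1 fell. Summed endothelial markers were at 405.5 to 489.3 CPM in the double CSS and 365.7 to 469.2 CPM in B6. Summed stellate cell markers were at 631.7 CPM in mouse 2, the mouse with the most muscle transcripts. They were at 416.4 to 496.1 CPM in the other double CSS mice and 408.2 to 624 CPM in B6. The part of muscle RNA in the rise of Des was not tested. None of 5 cholangiocyte, 4 lymphocyte, 3 neutrophil or 6 erythroid genes passed the test in edgeR or DESeq2, with 1 at an unadjusted p under 0.05 in edgeR, an erythroid gene, and the 1 measured pancreas gene, Cela1, was at 5.78 to 9.37 CPM against 3.27 to 6.43 CPM in B6. Of 9 hepatocyte genes, Cps1 and Hnf4a fell, by 0.31 and 0.36 on the log2 scale.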
